A study of Mus musculus with 2 samples.

Results

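Glycolysis is described here through 10 genes in immune cells of mouse pancreatic islets: Slc2a1, Hk2, Hk3, Pfkl, Aldoa, Gapdh, Pgk1, Eno1, Pkm and Ldha. The genes were listed by symbol, and all 10 were found among the 31053 genes annotated in both libraries. The study profiled single cells from islets of male C57BL/6J mice fed chow, isolated from pools of 6 to 8 animals. Live immune cells were sorted as DAPI-, Epcam- and CD45+, that is, cells that excluded a DNA dye, lacked an epithelial surface protein and carried the pan-leukocyte protein. There was 1 library labelled 12 weeks and 1 labelled 1 week, with diet, strain and sex in common, and their titles number them as replicates although the time labels differ. What the weeks count (age, or time on the diet) is not stated, and each label has its own experiment number, so the label, the experiment and the pool cannot be told apart.

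Glycolysis splits glucose into pyruvate in the cytosol and yields ATP without oxygen. A transporter brings glucose in, a hexokinase traps it as glucose 6-phosphate, phosphofructokinase commits it to breakdown, and a chain of abundant enzymes carries it on to pyruvate. Lactate dehydrogenase then turns pyruvate into lactate and renews NAD+. Many of these genes are known targets of the hypoxia-inducible factor HIF-1, and macrophages are known to raise glycolysis on activation. Several steps have paralogs that differ in kinetics and in the cells that use them.

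Promoter windows are printed for 4 members: Slc2a1 and Hk3, which had few UMIs outside macrophages, Hk2, and Ldha, which was lower in macrophages. Each window holds 250 bases before and 50 bases after a transcript start, in RefSeq coordinates of GRCm38.p6. They are Slc2a1 at chr4:119108495-119108794 on the plus strand, Hk2 at chr6:82774405-82774704 on the minus strand, Hk3 at chr13:55021336-55021635 on the minus strand, and Ldha start site 1 at chr7:46845554-46845853 on the plus strand. Capitals mark ACGTG and GCGTG, the core of the hypoxia response element, read on both strands, so that the complements CACGT and CACGC are marked too. CACGTG counts on both strands and is shown as 1 stretch.
Slc2a1: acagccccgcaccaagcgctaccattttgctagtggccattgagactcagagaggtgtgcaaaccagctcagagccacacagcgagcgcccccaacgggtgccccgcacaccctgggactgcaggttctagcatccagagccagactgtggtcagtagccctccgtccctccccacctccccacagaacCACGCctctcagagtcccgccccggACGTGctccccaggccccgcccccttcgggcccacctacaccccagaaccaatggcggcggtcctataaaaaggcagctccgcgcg
Hk2: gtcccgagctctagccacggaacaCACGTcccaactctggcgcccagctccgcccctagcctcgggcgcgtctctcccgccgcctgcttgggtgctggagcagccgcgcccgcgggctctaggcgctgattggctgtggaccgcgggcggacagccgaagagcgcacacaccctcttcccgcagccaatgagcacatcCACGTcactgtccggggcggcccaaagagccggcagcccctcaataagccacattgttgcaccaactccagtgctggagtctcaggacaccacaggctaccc
Hk3: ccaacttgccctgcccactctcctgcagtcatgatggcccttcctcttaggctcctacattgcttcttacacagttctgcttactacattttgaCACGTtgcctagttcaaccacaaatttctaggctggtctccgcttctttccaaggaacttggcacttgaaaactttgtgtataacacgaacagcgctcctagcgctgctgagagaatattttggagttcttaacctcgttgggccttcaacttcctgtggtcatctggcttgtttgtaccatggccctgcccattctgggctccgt
Ldha: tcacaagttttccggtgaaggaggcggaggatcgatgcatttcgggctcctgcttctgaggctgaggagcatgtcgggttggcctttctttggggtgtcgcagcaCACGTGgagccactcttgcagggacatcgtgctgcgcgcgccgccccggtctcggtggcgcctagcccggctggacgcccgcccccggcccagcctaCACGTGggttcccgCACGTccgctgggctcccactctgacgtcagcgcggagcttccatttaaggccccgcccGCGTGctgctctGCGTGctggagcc
A match was found in 14 of the 16 start-site windows of the members, and each of the 10 genes had at least 1 window with a match. The windows of start sites 2 and 3 overlap for Aldoa and for Eno1 and share matches. No share per gene was taken over all genes. Over all 32851 windows of the table, 43.8% held a match. Slc2a1 and Hk2 held 2 stretches each, a number reached or passed by 17.2% of all windows, and Hk3 held 1. The printed Ldha window, the richest of the 16, held 7 matches in 5 stretches, and 0.700% of all windows held 5 or more. The window of Ldha start site 2 held 2 stretches. These matches describe letters only, and the files hold no measure of binding.

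Cells were macrophages when C1qa, C1qb and C1qc, which encode the complement component C1q, together had at least 5 unique molecular identifiers (UMIs, 1 per captured transcript). After filtering, 1752 cells were kept in the 12-week library and 1340 in the 1-week library, from 12448628 and 12858754 UMIs over all barcodes. Macrophages numbered 1620 at 12 weeks and 1243 at 1 week, with medians of 6890.5 and 7401 UMIs per cell. Cells with fewer C1q UMIs numbered 132 at 12 weeks and 97 at 1 week, and were divided by clusters into B-like cells (29 and 26), T-like cells (40 and 10) and dendritic-like cells (33 and 17). The remaining 30 and 44 cells were mixed, with endocrine markers at 309926 and 605249 counts per 1000000 UMIs (CPM), and entered no class profile of the main test, only a comparison in which all low-C1q cells were pooled. C1q stood at 8965 and 9984 CPM in macrophages, and between 31.4 and 84.6 CPM in the B-, T- and dendritic-like profiles. Near the threshold, 8 macrophages at 12 weeks and 12 at 1 week had only 5 or 6 C1q UMIs. Endocrine marker transcripts, which macrophages do not make, reached 5778 and 19788 CPM in macrophages, and their part in the results was not tested. All 8 cell profiles are sums over cells of 1 library. The p-values rest on the spread of class differences between these 2 pools, with the variance of each gene drawn toward that of all genes. They hold no measure of spread over further pools. The 1-week T-like profile held only 30264 UMIs from 10 cells.

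The 10 genes together made up 1618 CPM of macrophage transcripts at 12 weeks and 1692 CPM at 1 week. T-like cells held 1997 and 1983 CPM, dendritic-like cells 1496 and 1809 CPM, and B-like cells 1270 and 1159 CPM. Summed over the pathway, macrophages therefore lay between T-like and B-like cells in both libraries. Within that sum, macrophages held the highest Slc2a1, Hk3 and Pkm values of the classes in both libraries, and the lowest Ldha and Pfkl values but for Pfkl in 1-week B-like cells. Of the 10 genes, 7 had enough counts to be tested over all classes, and Slc2a1, Hk3 and Pfkl did not. Against the mean of the other classes, 3 of the 7 were higher in macrophages (Hk2, Aldoa and Pkm) and 1 was lower (Ldha), by edgeR's quasi-likelihood test at a Benjamini-Hochberg adjusted p under 0.05. Of all 3117 genes tested, 26.7% were higher in macrophages and 12.6% lower, so a share of this size is common in the comparison. The median log2 fold change was 0.30 over the 7 members and 0.01 over all genes tested.

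**Figure D1:**
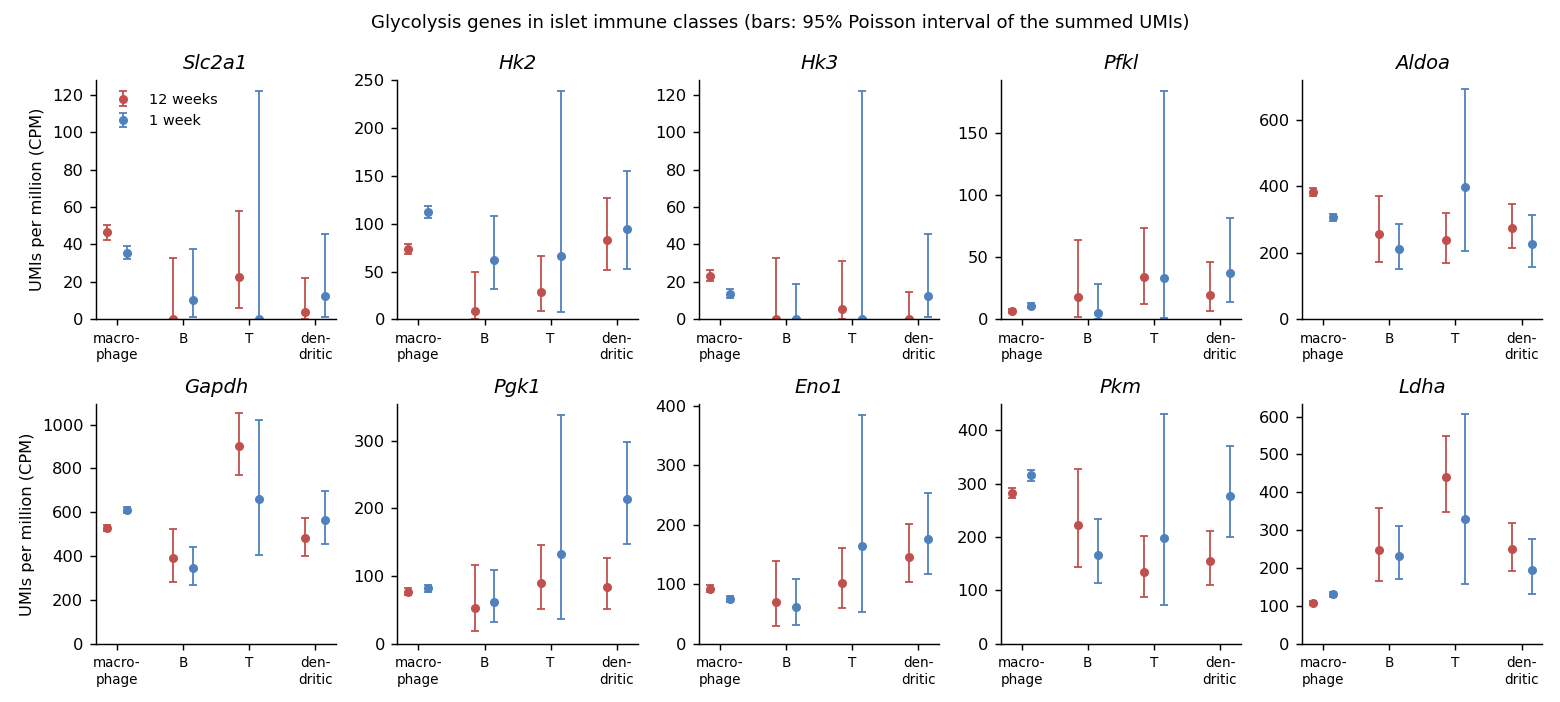
Level of each of the 10 genes (CPM) in macrophages and in the B-, T- and dendritic-like classes, for the 12-week library (red, left) and the 1-week library (blue, right). Points are the sums over cells and bars the 95% Poisson interval of the counts. Slc2a1 and Hk3 are highest in macrophages, and Ldha is lowest in macrophages in both libraries.

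Slc2a1 (chr4:119108711-119137983, plus strand, GRCm38) encodes GLUT1, the glucose transporter of most cells. In macrophages it stood at 46.4 CPM at 12 weeks and 35.7 CPM at 1 week. B-like cells had 0 and 10.3 CPM, T-like cells 22.6 and 0 CPM, and dendritic-like cells 3.97 and 12.6 CPM. Macrophages had the higher value in every class comparison within a library, but the other classes rest on 0 to 4 UMIs each. With B-, T- and dendritic-like cells summed, Slc2a1 had 5 UMIs outside macrophages at 12 weeks and 4 at 1 week, so that macrophages were 5.03-fold higher at 12 weeks (95% interval 2.14 to 15.6) and 3.41-fold higher at 1 week (1.32 to 12.6). These intervals, like all others here, cover counting error only. This summed comparison, chosen after the data were seen, tested 10430 genes, of which 13.9% were higher in macrophages and 8.11% lower. It held only a macrophage and a summed profile per library, so its p-values rest on fewer profiles than those of the main test. Slc2a1 was called higher there by edgeR, at log2 2.41 (SE 0.40, adjusted p = 0.000712), a fitted value that rests on these few UMIs outside macrophages.

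Hexokinases carry out the first phosphorylation, and both listed ones were measured. Hk2 (chr6:82725025-82774454, minus strand) encodes the inducible enzyme that can bind mitochondria. It stood at 73.4 CPM in macrophages at 12 weeks and 112 CPM at 1 week. B-like cells had 8.88 and 62.1 CPM, T-like cells 28.2 and 66.1 CPM, and dendritic-like cells 83.3 and 94.2 CPM. Macrophages were above B- and T-like cells in both libraries, below dendritic-like cells at 12 weeks and above them at 1 week. The edgeR log2 fold change was 1.02 against the mean of the other classes (SE 0.30, adjusted p = 0.0126), 1.29 against B-like cells (adjusted p = 0.0333) and 1.61 against T-like cells (adjusted p = 0.0321). Against dendritic-like cells it was 0.15 (SE 0.35, adjusted p = 0.815). Within the libraries, with the same scaling, the difference from the mean of the other classes was log2 1.60 at 12 weeks and 0.81 at 1 week, and the 12-week B-like profile held a single Hk2 UMI. With a stricter cell filter, under which the 12-week B-like and 1-week T-like profiles fell below 10 cells, the Hk2 value was 0.33 and none of the 3 calls held (adjusted p = 0.438 against the mean). The B-like call was also lost without the library block (1.22, adjusted p = 0.0892), and the T-like call with DESeq2 (adjusted p = 0.0601), with library totals in place of TMM (0.123) and without the 1-week T-like profile (0.0870), and both were lost at the stricter C1q thresholds (0.0786 and 0.0561).

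Hk3 (chr13:55005985-55021385, minus strand) encodes a hexokinase known from myeloid cells. It was at 23.2 CPM in macrophages at 12 weeks and 13.7 CPM at 1 week. B-like cells had no UMI in either library, T-like cells had 1 UMI at 12 weeks and 0 at 1 week, and dendritic-like cells had 0 UMIs at 12 weeks and 2 at 1 week. In summed B-, T- and dendritic-like cells, the ratio was 12.6 at 12 weeks (95% interval 2.24 to 500) and 2.62 at 1 week (0.713 to 21.8). The 1-week interval includes equality, and the size of the difference was not resolved at this depth.

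Pfkl (chr10:77986947-78010083, minus strand) encodes the liver type of phosphofructokinase, the committing step. It was the least abundant member in macrophages, at 6.56 CPM at 12 weeks and 11.0 CPM at 1 week. Summed B-, T- and dendritic-like cells had 24.0 CPM at 12 weeks and 20.9 CPM at 1 week, from 13 and 8 UMIs. The ratio of macrophages over these cells was 0.273 at 12 weeks (95% interval 0.151 to 0.537) and 0.524 at 1 week (0.258 to 1.24). The summed edgeR comparison gave log2 -1.14 (SE 0.43, adjusted p = 0.0815) and did not call it.

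Aldoa (chr7:126795234-126800751, minus strand) encodes the aldolase that cleaves fructose 1,6-bisphosphate. It stood at 382 CPM in macrophages at 12 weeks and 307 CPM at 1 week. B-like cells had 257 and 212 CPM, T-like cells 237 and 396 CPM, and dendritic-like cells 274 and 226 CPM. Macrophages were highest at 12 weeks, while the sparse T-like profile was above them at 1 week. Against the mean of the other classes, Aldoa was higher at log2 0.67 (SE 0.22, adjusted p = 0.0243, edgeR), with 0.83 at 12 weeks and 0.42 at 1 week. This call was lost when profiles were scaled by their totals alone (log2 0.43, adjusted p = 0.146). A second annotated Aldoa entry, at chr7:126800790-126809108, was kept apart from the first.

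Gapdh (chr6:125161715-125166467, minus strand) encodes the dehydrogenase that makes NADH from glyceraldehyde 3-phosphate. It was the most abundant member, at 527 CPM in macrophages at 12 weeks and 609 CPM at 1 week, against 391 and 347 CPM in B-like, 903 and 661 CPM in T-like, and 480 and 565 CPM in dendritic-like cells. T-like cells held the highest value in both libraries. The edgeR log2 fold change was 0.30 (SE 0.24, adjusted p = 0.345) and did not pass. Pgk1 (chrX:106187100-106203699, plus strand), which encodes the first ATP-making enzyme, had 76.6 and 81.8 CPM in macrophages, 53.3 and 62.1 CPM in B-like, 90.3 and 132 CPM in T-like, and 83.3 and 214 CPM in dendritic-like cells. Macrophages lay above only B-like cells in both libraries. Its log2 fold change was -0.04 (SE 0.26, adjusted p = 0.944). Eno1 (chr4:150236721-150248879, plus strand), which encodes the enolase of most tissues, had 92.6 and 75.1 CPM in macrophages, 71.0 and 62.1 CPM in B-like, 102 and 165 CPM in T-like, and 147 and 176 CPM in dendritic-like cells. Dendritic-like cells were above macrophages in both libraries. Its log2 fold change was -0.13 (SE 0.23, adjusted p = 0.711).

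The levels of Gapdh and Eno1 carry a limit of mapping. Of the 410 stretches of 91 bases, the length of the cDNA read, in the last 500 bases of the Gapdh transcript, 79.5% also occur in transcripts of 65 other annotated genes, 63 of them pseudogenes. For Eno1, 52.7% are shared with Eno1b and the pseudogene Gm4735. The other 8 members shared none. No source used here says how reads that fit several genes were treated, so the levels of these 2 genes are uncertain.

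Pkm (chr9:59656368-59679375, plus strand) encodes the pyruvate kinase of most cells. It stood at 283 CPM in macrophages at 12 weeks and 316 CPM at 1 week, against 222 and 166 CPM in B-like cells, 135 and 198 CPM in T-like cells, and 155 and 276 CPM in dendritic-like cells. Macrophages were highest in both libraries. Pkm was higher against the mean of the other classes at log2 0.92 (SE 0.23, adjusted p = 0.00388, edgeR) and against T-like cells at 1.34 (adjusted p = 0.00706). Within the libraries the value against the mean of the other classes was 1.01 at 12 weeks and 0.82 at 1 week. The call against T-like cells was lost with library totals in place of TMM (log2 0.90, adjusted p = 0.0660). The 3' counts do not separate the M1 and M2 splice forms of Pkm.

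Ldha (chr7:46841475-46855627, plus strand) encodes the lactate dehydrogenase subunit that favours lactate. It stood at 108 CPM in macrophages at 12 weeks and 131 CPM at 1 week, against 249 and 233 CPM in B-like cells, 440 and 330 CPM in T-like cells, and 250 and 195 CPM in dendritic-like cells. Every other class lay above macrophages in both libraries. Ldha was lower against the mean of the other classes at log2 -1.01 (SE 0.24, adjusted p = 0.00283, edgeR), against B-like cells at -0.91 (adjusted p = 0.0266) and against T-like cells at -1.35 (adjusted p = 0.00308). Within the libraries the value against the mean of the other classes was -1.23 at 12 weeks and -0.69 at 1 week. When all cells low in C1q were pooled, endocrine-rich cells included, the value was -0.06 and was not called (adjusted p = 0.902). Without the filter on low counts it was -0.75 (adjusted p = 0.0666), with -0.63 against B-like cells (0.456) and -1.03 against T-like cells (0.0618), and the stricter cell filter lost the B-like call (-0.89, adjusted p = 0.114). The mixed endocrine-rich cells themselves had 52.8 and 11.8 CPM of Ldha.

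By class, the counts of tested members were small. Against B-like cells, Hk2 was higher and Ldha lower, 1 of 7 each way, where 23.9% of all genes were higher and 14.6% lower. Against T-like cells, Hk2 and Pkm were higher and Ldha lower, where 22.2% of all genes were higher and 12.7% lower. Against dendritic-like cells, where 12.3% of all genes were higher and 7.89% lower, edgeR called 0 of the 7. At an unadjusted p under 0.05 from the same edgeR fit, 1 was higher there, Pkm at log2 0.66 (adjusted p = 0.127). Under the same unadjusted limit 2 were lower, Eno1 at -0.79 (adjusted p = 0.0544) and Ldha at -0.77 (adjusted p = 0.0799). Of all 3117 genes, 570 were higher and 426 lower at that unadjusted limit, so such counts are common in the comparison. DESeq2 also called 0 members higher and 0 lower against dendritic-like cells. Macrophage markers summed to 12976 CPM at 12 weeks and 14199 CPM at 1 week in macrophages, against 1551 and 4184 CPM in dendritic-like cells. These sums include the C1q genes that defined the classes. C1q alone made up 8965 and 9984 CPM in macrophages, and 47.6 and 31.4 CPM in dendritic-like cells. Much of the gap was therefore set by the class rule, and most of the dendritic-like sum came from the other markers. The part of these markers in the comparison was not tested.

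Other genes of the pathway, from lists of 68 genes besides the members, were mostly too sparse, and 16 were tested. Against the mean of the other classes, 5 of the 16 were higher in macrophages and 4 lower, where 26.7% of all genes were higher and 12.6% lower. Tpi1, the triose phosphate isomerase, was higher at log2 1.01 (SE 0.29, adjusted p = 0.0106, edgeR). All 3 tested genes of the pentose phosphate route were higher, namely Pgd at 2.76, Taldo1 at 1.57 and Tkt at 0.93, and of these only Pgd was also called against dendritic-like cells (log2 1.79, adjusted p = 0.00464). Pfkp, which encodes the platelet type of phosphofructokinase, was lower at -1.21 (SE 0.35, adjusted p = 0.0114), and at -2.40 against dendritic-like cells. Mpc2, a subunit of the mitochondrial pyruvate carrier, was lower at -1.22. Of 7 tested genes of the hypoxia list, Mxi1 was higher (1.67), and Ddit4 (-2.58) and Mif (-0.86) were lower. Gpi1 and Pgam1 did not pass, at -0.04 (adjusted p = 0.922) and 0.30 (adjusted p = 0.376).

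Paralog use in macrophages was read as the share of each family's UMIs. Among glucose transporters, Slc2a1 took 59.5% at 12 weeks (95% exact binomial interval 56.2 to 62.7) and 50.9% at 1 week (47.4 to 54.5). Slc2a6, which encodes a transporter of intracellular membranes, followed with 29.2% and 31.5%. Slc2a8 took 5.15% and 6.01%. Slc2a3, the high-affinity transporter of neurons and many leukocytes, took only 4.14% and 3.75%, and Slc2a4, the insulin-responsive transporter, had 0 UMIs in both libraries. Slc2a2 took 0.336% and 2.88%, and Slc2a5 0.448% and 3.38%. In the mixed endocrine-rich cells at 1 week these took 43.5% and 49.6%. The part of endocrine transcripts in the macrophage shares was not tested. With C1q at least 20, Slc2a1 took 59.1% and 54.1%. Among hexokinases, Hk2 took 67.5% at 12 weeks (64.8 to 70.1) and 82.1% at 1 week (80.1 to 84.0). Hk3 took 21.4% (19.1 to 23.8) and 10.0% (8.58 to 11.6), and Hk1, the housekeeping form, 10.6% and 7.39%. Hk2 was therefore the main hexokinase transcript in both libraries. No hexokinase UMI of dendritic-like cells at 12 weeks came from Hk3 (21 of 27 were Hk2), and at 1 week 2 of 19 did.

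Among phosphofructokinases the listed gene was not the main one. Pfkl took 23.7% at 12 weeks (19.1 to 28.7) and 33.4% at 1 week (28.7 to 38.5), while Pfkp took 75.4% and 65.5% and the muscle form Pfkm about 1%, at 0.946% and 1.07%. At the remaining steps 1 gene dominated. Aldoa took 99.6% of aldolase UMIs in both libraries, Eno1 94.2% and 93.0% of enolase UMIs, and Ldha 96.1% and 94.1% of lactate dehydrogenase UMIs. Gapdh, Pgk1 and Pkm took 100% of theirs, and the testis or liver forms Gapdhs, Pgk2 and Pklr had no UMI.

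**Figure D2:**
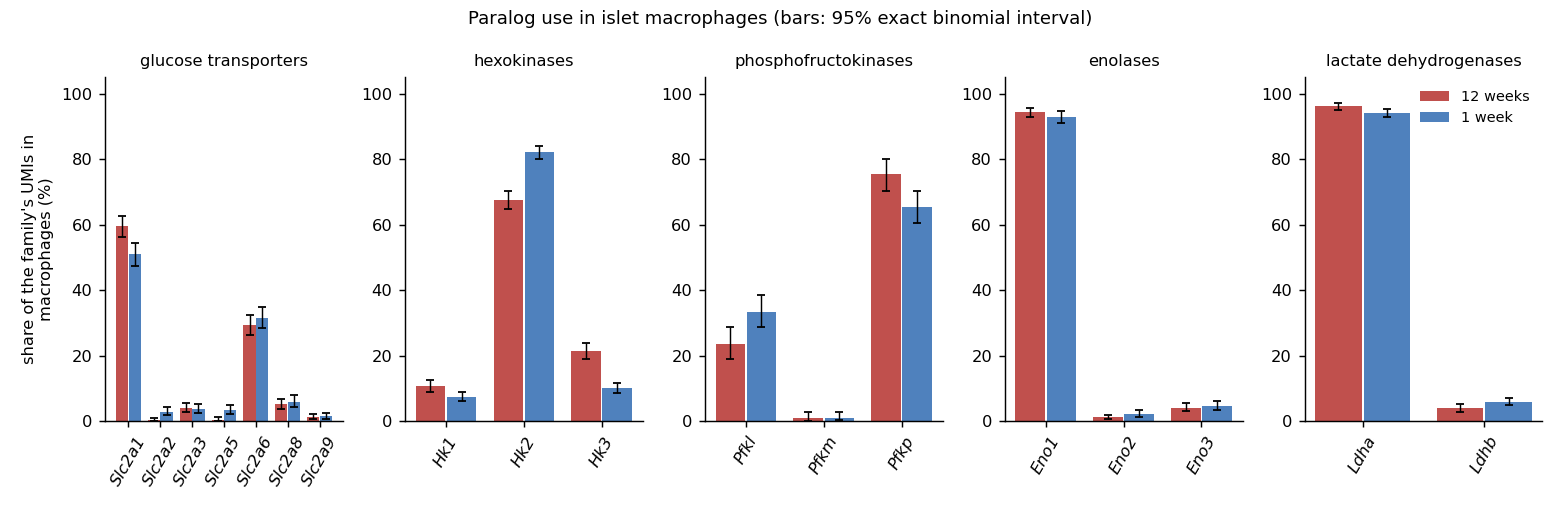
Share of each family's UMIs taken by each paralog in macrophages, in percent, at 12 weeks (red, left) and 1 week (blue, right), with 95% exact binomial intervals. Paralogs at 1% or more in either library are drawn. Slc2a1, Hk2, Eno1 and Ldha lead their families, whereas Pfkp, at 75.4% and 65.5%, leads the phosphofructokinases over Pfkl.

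Between the time labels there was 1 library each, so no test was possible and ratios are given with counting intervals. A 1.5-fold difference was used as a call of size. Of 6563 genes with at least 100 summed UMIs in the higher library, 5.1% were more than 1.5-fold higher at 12 weeks and 6.08% lower. Among the 10 members, Hk3 was past it upward, at 1.70-fold (log2 0.77, 95% interval 0.47 to 1.06). Hk2 and Pfkl were past it downward, Hk2 at a ratio of 0.655 (log2 -0.61, -0.74 to -0.48) and Pfkl at 0.598 (log2 -0.74, -1.17 to -0.32). The hexokinases thus differed in opposite directions. Slc2a1 (1.30), Aldoa (1.24) and Eno1 (1.23) were above 1, and Pgk1 (0.936), Pkm (0.895), Gapdh (0.865) and Ldha (0.821) below it. The log2 median was -0.13 over the members and -0.05 over all genes counted. With trimmed-mean scaling, Pfkl (log2 -0.67) and Hk3 (0.84) stayed past the fold and Hk2 (-0.53) did not.

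**Figure D3:**
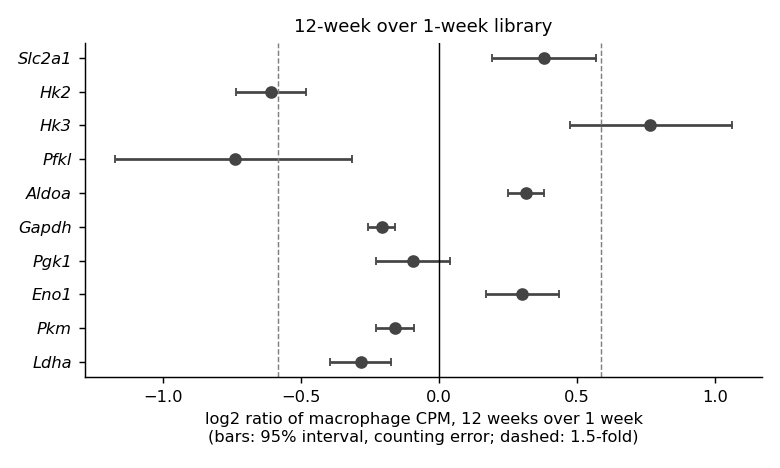
Log2 ratio of macrophage CPM, 12 weeks over 1 week, for the 10 genes, with 95% intervals for counting error only and dashed lines at 1.5-fold. Hk3 lies beyond the line on the right, and Hk2 and Pfkl beyond the line on the left.

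Macrophages of 1 cluster came almost only from the 1-week library. This cluster, number 8, held 176 macrophages at 1 week (14.2% of them) and 7 at 12 weeks (0.432%), and its cells were shallow, with a median of 3550 UMIs at 1 week. At 1 week its cells had 1 Slc2a1 UMI among 818269, that is 1.22 CPM (95% interval 0.0309 to 6.81), against 38.3 CPM in the remaining 1-week macrophages. The transporter was thus nearly undetected in these cells. Its cells had 189 CPM of Hk2, 910 CPM of Gapdh, 152 CPM of Eno1 and 194 CPM of Ldha, against 106, 586, 69.2 and 126 CPM in the remaining 1-week macrophages. Aldoa stood close in both, at 313 CPM in the cluster and 306 CPM in the remaining cells, while Pkm (271 against 319 CPM) and Hk3 (7.33 against 14.2 CPM) were lower in the cluster. Pgk1 was at 101 against 80.3 CPM and Pfkl at 18.3 against 10.4 CPM. With 1 library per label, whether this cluster belongs to the label or to the library cannot be told apart. Without it, in a comparison added after the data were seen, the ratio of 12 weeks over 1 week was 0.693 for Hk2, 0.632 for Pfkl, 1.63 for Hk3 and 1.34 for Eno1, and only Pfkl and Hk3 were past 1.5-fold.

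Genes linked to the pathway differed between the labels as well. Of 11 counted genes of the hypoxia list, 4 were more than 1.5-fold higher at 12 weeks and 0 lower, where 5.1% of all 6563 genes were higher and 6.08% lower. Vegfa, the angiogenic growth factor, stood at 101 CPM at 12 weeks and 49.4 CPM at 1 week (2.04-fold). P4ha1, a collagen prolyl hydroxylase subunit, was at 67.4 and 35.2 CPM, and Hif1a, which encodes the oxygen-regulated subunit of HIF-1, at 95.5 and 61.1 CPM. Bnip3, a mitophagy receptor, was at 11.6 and 6.57 CPM. Of 5 counted genes of other carbohydrate use, 1 was past the fold: G6pdx, which opens the pentose phosphate route, was at 44.0 and 25.6 CPM (1.72-fold). Among the glycolytic members, 4 of 10 had ratios above 1. Slc16a3, the lactate exporter, had a ratio of 1.39 and Pfkfb3, which makes the activator of phosphofructokinase, 1.24, while Gpi1 (0.699) and Pgam1 (0.767) were below 1.

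To compare single cells, each macrophage was thinned at random to 3000 UMIs, which left 1530 cells at 12 weeks and 1089 at 1 week and left out 90 and 154 shallower cells. At this depth a macrophage had a median of 3 of the 10 genes and 5 of their UMIs in both libraries, and the 10 genes made up 0.162% of its UMIs at 12 weeks and 0.169% at 1 week. Only 27 cells at 12 weeks and 21 at 1 week had none of the 10. Gapdh was detected in 75.6% of cells at 12 weeks and 79.3% at 1 week, Aldoa in 63.8% and 57.5%, and Pkm in 54.8% and 59.1%. The entry steps were detected less often than these: Hk2 in 16.0% and 25.4%, Slc2a1 in 11.4% and 9.55%, Hk3 in 6.47% and 4.13%, and Pfkl in 1.96% and 2.94%. Ldha was detected in 26.2% and 32.0%, Eno1 in 24.4% and 19.1%, and Pgk1 in 18.3% and 19.5%, so that at 1 week Hk2 was above Eno1 and Pgk1. Not all 176 macrophages of the shallow cluster 8 at 1 week reached 3000 UMIs. Without that cluster, 990 cells remained at 1 week, with Hk2 in 22.2%, Eno1 in 17.6% and Pgk1 in 20.1% of them. Before thinning, Slc2a1 was seen in 22.8% of the macrophages at 12 weeks and 22.1% at 1 week, and Hk2 in 27.8% and 46.2%.

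At the same depth, B-like cells numbered 17 at 12 weeks and 24 at 1 week. Hk3 was seen in 0 of both, which, by a limit of 3 counts of the total, allows shares of up to 17.6% and 12.5%, above the shares in macrophages. Single-cell detection of Hk3 in B-like cells was therefore not resolvable at this depth. Spread over cells was read as the Fano factor, the variance over the mean, which is 1 for random sampling alone. Hk2 had 1.66 at 12 weeks, the highest of the 10 there, and 1.41 at 1 week, with up to 5 and 8 UMIs in a thinned cell. The median Fano factor of all 2500 genes detected in at least 10% of cells was 1.12 and 1.11. Gapdh had 1.29 at 12 weeks and 1.44 at 1 week, but with another random thinning the 1-week values were 1.52 for Hk2 and 1.51 for Gapdh, so their order there depends on the draw. Hk3 (1.05 and 1.00) and Pfkl (1.04 and 0.972) stood near 1. Their means were only 0.069 and 0.042 UMIs per cell for Hk3 and 0.020 and 0.029 for Pfkl. At so few UMIs the factor stays close to 1 for most spreads, so it cannot show whether these genes were even over cells. On thinning to 5000 UMIs, Hk3 had 1.19 at 12 weeks and 1.06 at 1 week.

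Cells with and without Hk3 had close shares with Hk2. Hk2 was seen in 15.2% of cells with an Hk3 UMI and 16.1% of cells without at 12 weeks, and in 22.2% and 25.6% at 1 week. Slc2a1 was seen in 8.57% of cells with an Hk2 UMI and 12.0% of cells without at 12 weeks, and in 8.30% and 9.98% at 1 week. Co-variation of the 10 genes was weak throughout. The median Pearson correlation of log1p UMIs over the 45 pairs was 0.004 at 12 weeks (n = 1530 cells) and 0.014 at 1 week (n = 1089 cells), against 0.001 and 0.003 over all pairs of the 2500 genes. Hk3 and Pfkl in both libraries, and Slc2a1 at 1 week, fell below the 10% detection that defined the 2500 genes. Pairs with them are therefore sparser than the background pairs, and the medians are not like for like. Cells of a library share its preparation, and values this small in sparse counts are a description only. The 15 pairs among Aldoa, Gapdh, Pgk1, Eno1, Pkm and Ldha had medians of 0.021 and 0.066, and the 90th percentile of all pairs was 0.042 and 0.053. The highest pair was Aldoa with Pkm at 12 weeks (0.092) and Gapdh with Pgk1 at 1 week (0.141). The lowest was Hk2 with Aldoa at 12 weeks (-0.121), a pair at -0.014 at 1 week. A second random thinning gave 0.043 and 0.094 for the 15 pairs, so the second decimal depends on the draw. The 90th percentile of all pairs was again 0.042 and 0.053. At 12 weeks the 15 pairs thus stood below that percentile in the first draw and about at it in the second. On thinning to 5000 UMIs their medians were 0.059 and 0.090, above percentiles of 0.046 and 0.056. On thinning to 2000 UMIs they were 0.036 and 0.041, below percentiles of 0.041 and 0.053. For Slc2a1, Hk2, Hk3 and Pfkl, the correlation with a score of the other 9 members lay between -0.095 and 0.023 in both libraries. At 12 weeks Eno1 (0.009) and Pgk1 (0.017) lay in that range too, with Ldha (0.024) just above it. At 1 week the remaining members ran from 0.054 (Ldha) to 0.167 (Gapdh).

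**Figure D4:**
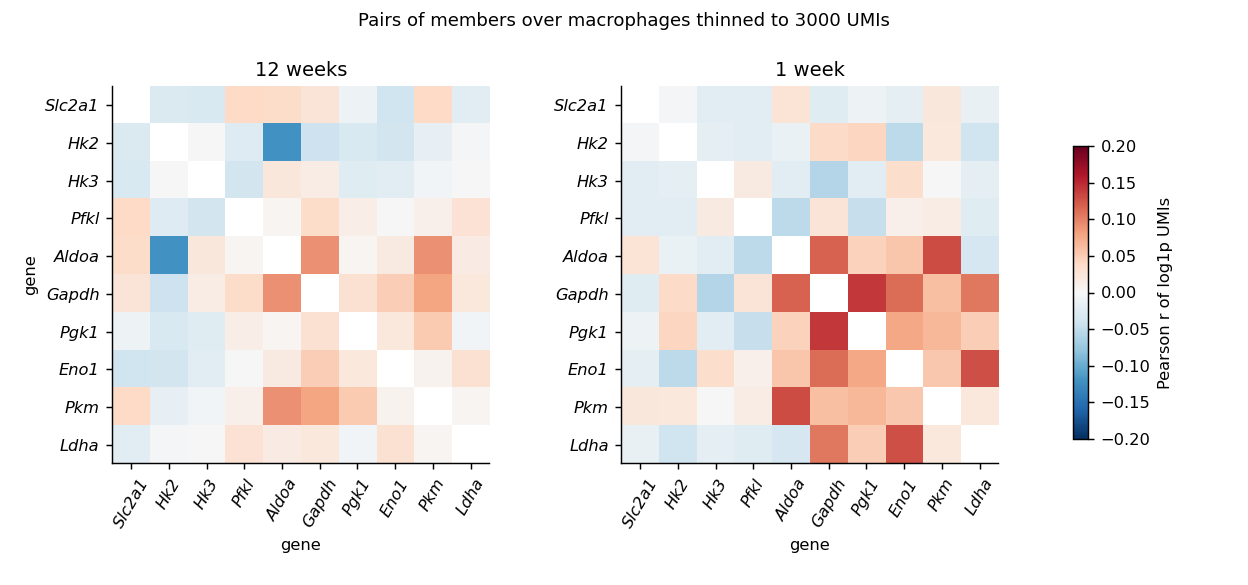
Pearson correlation of log1p UMIs for each pair of the 10 genes over macrophages thinned to 3000 UMIs, for the 12-week library (left) and the 1-week library (right), with the colour scale from -0.2 to 0.2. The reddest squares join Aldoa, Gapdh, Pgk1, Eno1, Pkm and Ldha, with the highest at 0.092 (12 weeks) and 0.141 (1 week), and Hk2 with Aldoa is the bluest at 12 weeks.

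The genes most like the member score across macrophages, by the lower of the correlations in the 2 libraries, were Prdx1, a peroxiredoxin (0.165 at 12 weeks and 0.144 at 1 week), and Taldo1, the transaldolase of the pentose phosphate route (0.137 and 0.148). Hint1, Ftl1, Lipa, Psma3, Psmc6, Romo1, Arpc1b and Psma1 followed, with correlations from 0.072 to 0.145. With another random thinning, Prdx1, Taldo1, Ftl1 and Psma3 were again among the first 10 and the others were not. The list of other carbohydrate use stood at 0.159 and 0.173, and the hypoxia list at 0.003 and 0.108. Cycling markers were at -0.002 and 0.139, endocrine markers at -0.071 and -0.107, and the mitochondrial share at -0.057 and -0.104. The total of the cell before thinning was at 0.067 and 0.065. All these are weak, and the part of cycling, endocrine transcripts and cell quality in the score was not tested.

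Members also varied between clusters of macrophages. Of the macrophage-like clusters, 9 had at least 30 cells in each library, and they were built without the members or the other listed genes. Clusters 8 and 13, with 7 and 13 cells at 12 weeks, are not among these 9. Clusters are given by number and leading genes, and their differences are described without a test. Slc2a1 was highest in cluster 5, led by Slc5a3 and Fosb and by the heat shock genes Hspa1a and Hspa1b, at 82.6 CPM at 12 weeks and 81.7 CPM at 1 week. Cluster 1, also led by Hspa1a and Hspa1b, followed with 73.0 and 59.5 CPM. The lowest values were 17.9 and 24.6 CPM in cluster 2 (Rab3il1, Cxcr4) and 19.4 and 24.5 CPM in cluster 3 (Il12b, Cxcl3). Of these 9, the clusters with most Slc2a1 in both libraries were thus led by stress genes. Leading genes were taken over cells of both libraries together, not within each.

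Hk2 had another order. Its high clusters were 6 (Cxcl1, Il10), at 156 CPM at 12 weeks and 170 CPM at 1 week, 10 (led by the interferon-induced Ifit genes and Rsad2), at 132 and 191 CPM, 7 (Acp5, Ocstamp), at 134 and 103 CPM, and 3, at 129 and 138 CPM. It was lowest in cluster 4 (Slc40a1, Spic) at 12 weeks, at 29.1 CPM, and in cluster 5 at 1 week, at 44.8 CPM. Cluster 5, with the most Slc2a1, had 62.6 CPM of Hk2 at 12 weeks. Highest over lowest of the 9 clusters, Hk2 spanned 5.34-fold at 12 weeks and 4.25-fold at 1 week, and Slc2a1 4.61-fold and 3.33-fold. Cluster 8, outside these ranges, had 1.22 CPM of Slc2a1 at 1 week, below all 9. Hk3 was highest in cluster 9 (Slc40a1, Itgb8, Cd36) at 44.0 and 34.4 CPM.

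The later enzymes varied less over these 9 clusters. Aldoa was highest in cluster 4 at 528 and 392 CPM and spanned 1.99-fold and 1.57-fold. Gapdh spanned 1.44-fold at 12 weeks and 1.27-fold at 1 week, the narrowest range of the 10 genes over the 9 clusters in each library. Cluster 8, left out here, had 910 CPM of Gapdh at 1 week, above the highest of the 9 (598 CPM). Pkm was lowest in cluster 3, at 163 and 223 CPM. Ldha was low in cluster 5, at 81.2 and 97.5 CPM. The order of the 9 clusters agreed best between the libraries for Slc2a1 (Spearman's rho 0.87), Hk3 (0.85), Pkm (0.82) and Ldha (0.80), was 0.77 for Aldoa and 0.65 for Hk2 and Gapdh, and least for Eno1 (0.35) and Pfkl (-0.23). Both libraries were clustered together, so these are descriptions. Within clusters, Aldoa was higher at 12 weeks in 9 of 9 and Eno1 in 8 of 9, and Pkm in 0 of 9. Hk3 was higher at 12 weeks in 7 of 9 and Hk2 in 3 of 9.

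**Figure D5:**
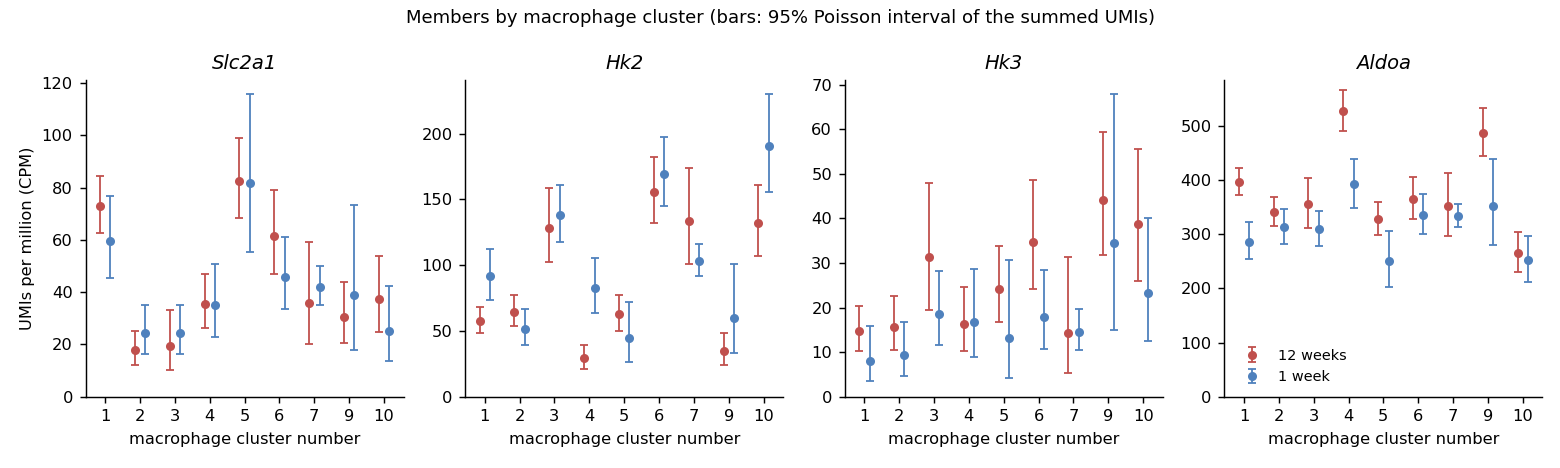
Level of Slc2a1, Hk2, Hk3 and Aldoa (CPM) in the 9 macrophage clusters with at least 30 cells in each library, at 12 weeks (red, left) and 1 week (blue, right), with 95% Poisson intervals. Slc2a1 peaks in clusters 1 and 5, Hk2 is high in clusters 3, 6, 7 and 10, Hk3 peaks in cluster 9, and Aldoa in cluster 4.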

How the data were processed

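The authors deposited matrices of raw UMI counts, with genes in rows and barcodes in columns. Reads were mapped to mm10 and counted by Cell Ranger, per the submitters' processing notes, in version 3.1.0, per the file headers. The method of cell calling was not stated in these sources. The libraries share 3 barcodes. Per the labels' protocols, 3' v3 droplet libraries were read with 91 bases of cDNA.

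Barcodes with at least 500 genes, 1000 UMIs and at most 10% mitochondrial UMIs were kept. No doublet caller was run and no doublets were removed, and 20 macrophages at 12 weeks and 27 at 1 week lay in B-, T- or dendritic-like clusters. Cells of both libraries were clustered together with scanpy 1.11.5 and leidenalg 0.10.2 (2000 variable genes per library without the listed genes, 30 components, 15 neighbours, resolution 1), with no batch integration. Clusters were named from at least 3 markers among their 30 leading genes. Clusters without such a name were called macrophage-like where the mean detection of macrophage markers passed 40% of cells, a value set after the detection shares were seen.

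Counts were summed per library and class with at least 10 cells, giving 8 profiles, and tested with edgeR 4.0.16 in R 4.3.3 (TMM, filterByExpr, quasi-likelihood test, library as block, 3 residual degrees of freedom, Benjamini-Hochberg over all genes at 0.05). The comparisons with other cells summed or pooled held only a macrophage profile and another profile per library. They left fewer residual degrees of freedom than the main test. DESeq2 1.42.0 was an alternative. The script was tested on simulated data. Because only 3117 genes passed filterByExpr over the 8 profiles, sparse members were tested only in alternatives. CPM is counts per 1000000 UMIs of the profile, and 1 tag per transcript lets genes be compared without length. Poisson and binomial intervals are exact at 95%. Macrophages were thinned with a fixed seed. Between time labels no test was made.

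Named genes were the 10 members, their paralogs, listed pathway genes, and the 10 genes nearest to the member score. The members and lists were chosen with earlier results of these data known. Gene positions and 91-base sharing came from GENCODE vM21, and promoters from RefSeq.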

Additional observations from a re-analysis of the deposited data

Results flagged for a closer look

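Pgk1 and Eno1 differed in direction between the libraries. On the scale of the edgeR fit, the log2 difference of macrophages minus the mean of B-, T- and dendritic-like cells was 0.30 for Pgk1 at 12 weeks and -0.35 at 1 week, and 0.11 for Eno1 at 12 weeks and -0.48 at 1 week. The difference between the libraries was not tested. For both genes the dendritic-like profile at 1 week stood highest of the classes, at 214 CPM for Pgk1 and 176 CPM for Eno1, from 34 and 28 UMIs.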

How the results depend on the processing

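Each number here is a count of the 10 members unless named otherwise. Against the mean of the other classes (3 higher, 1 lower), 5 were higher and 0 lower without the filter on low counts and with all low-C1q cells pooled. Over all genes, 1725 of 17758 were higher and 209 lower without the filter, with a log2 median of 1.20. With pooling, 1834 of 11112 genes were higher and 1770 lower. With B-, T- and dendritic-like cells summed, 5 were higher, among them Hk3, which had 3 UMIs outside macrophages. Of all 10430 genes there, 13.9% were higher and 8.11% lower. Against B-like cells (1 and 1), 2 were higher with DESeq2, with C1q at least 20 against at most 1, with macrophage-like clusters only and without the 1-week T-like profile. Over all genes, 689 of 3117, 677 of 2988, 761 of 3125 and 873 of 3900 were higher in these settings, in that order. Without the filter 3 were higher and 0 lower, and the stricter cell filter gave 0 lower. Of all genes, 1136 of 17758 were higher and 331 lower without the filter, and 200 of 3716 were lower with the stricter filter. Without the replicate block, 0 were higher than in B-like cells, where 716 of all 3117 genes were higher. Against T-like cells (2 and 1), 1 was higher with DESeq2, with the C1q setting and without the 1-week T-like profile, 0 were higher with library totals in place of TMM, and 0 were lower without the filter. Over all genes, 636 of 3117, 695 of 2988, 629 of 3900 and 514 of 3117 were higher in these settings, in that order. Without the filter, 389 of 17758 genes were lower. Against dendritic-like cells (0 and 0), 1 was higher without the filter, the stricter cell filter gave 1 higher and 1 lower, and 2 were lower without the 1-week T-like profile and with library totals. Of all genes, 598 of 17758 were higher without the filter. The stricter cell filter gave 492 higher and 367 lower of 3716. Lower were 369 of 3900 without the 1-week T-like profile and 314 of 3117 with library totals. Library totals moved the log2 median of all genes to -0.21, and the calls over all genes to 699 higher and 634 lower, against 832 and 392. The log2 value of Pgk1 turned positive with DESeq2 (0.077), without the filter (0.22), with the C1q setting (0.089), with the stricter filter (0.018) and with low-C1q cells pooled (0.28). That of Eno1 did so without the filter (0.13) and with pooling (0.25). Leaving out a library left values without a test, since no residual degrees of freedom remained: from -0.35 to 0.30 for Pgk1, and from -0.48 to 0.11 for Eno1. Between time labels (1 higher, 2 lower), 0 were past 2-fold either way, and 1 was lower with TMM scaling, with the stricter filter and without cluster 8. Of all 6563 genes, 75 were more than 2-fold higher and 116 lower. Past 1.5-fold, 322 of 6315 genes were lower with the stricter filter and 291 of 6410 without cluster 8. Over all genes, 335 were higher and 399 lower, against 439 and 294 with TMM scaling and 312 and 577 with per-cell means. The median share of cells with a UMI was 14.5% and 31.4% at 12 weeks, and 17.1% and 32.6% at 1 week, on thinning to 2000 and 5000 UMIs. Without thinning, the 15 pairs had median correlations of 0.077 at 12 weeks and 0.158 at 1 week. The cause of each change was not tested. The shares of Slc2a1, Hk2, Hk3 and Pfkl, the paralog shares that were run, stayed within their intervals under each setting. Settings with the 1-week T-like profile left out, classes summed, library totals, cluster 8 left out and other cells for paralog use were chosen after seeing the data. No paired analysis was possible between the time labels because each has 1 library.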
